A study of Mus musculus with 5 samples.

Results

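Krtdap, Dmkn and Sbsn are 3 neighbouring genes of mouse chromosome 7 that encode secreted proteins best known from the outer layers of the skin. They were chosen by their measured levels, since Krtdap and Dmkn gave lower signals after trichostatin A (TSA) in sorted muscle cells, so their differences with TSA are given below as a description, with no test. The members are the non-control probes of the array whose gene name is Krtdap, Dmkn or Sbsn. They are 3 genes of 36409 genes and unnamed features on the array, read by 4 probes with 1 spot each: 1 for Krtdap, 2 for Dmkn and 1 for Sbsn.

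All samples came from muscle of mdx mice (strain C57BL/6, labelled DMD/MDX), which lack dystrophin, after 45 days of intraperitoneal injections of TSA at 0.6 mg/kg or of vehicle. Sca1+ interstitial cells were sorted as CD34+/α7-integrin+/Sca1+ and muscle stem cells (MuSC) as CD34+/α7-integrin+/Sca1-. There were 2 arrays of Sca1+ cells with vehicle, 2 of Sca1+ cells with TSA and 1 of MuSC with vehicle; MuSC with TSA were not analysed here. The labels give neither the age of the mice nor whether replicates came from separate animals, so errors and p-values cover only the spread among these 5 arrays, which may be technical. Arrays numbered 1 shared slide 1, and arrays numbered 2 shared slide 2.

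In stratified epithelium the 3 genes are made by suprabasal keratinocytes, cells that have left the basal layer and are differentiating, and they have been described together as a cluster of secreted proteins of such epithelia. Krtdap encodes keratinocyte differentiation-associated protein, Dmkn encodes dermokine, made as several isoforms, and Sbsn encodes suprabasin, known as a substrate of the transglutaminases that cross-link the cornified envelope. TSA inhibits histone deacetylases, enzymes that remove acetyl groups from histones and other proteins.

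In the order of the RefSeq gene table the genes follow each other directly as Sbsn, Dmkn and Krtdap, with Gapdhs before them and Ffar2 after them. In the array file's mm9 positions the Krtdap probe lies at chr7:31574534-31574762, a span of 229 bases for a probe of 60, so it crosses at least 1 intron. The Dmkn probes lie at chr7:31566013-31566072 and chr7:31566018-31566077, share 55 bases and count as 1 measurement. The Sbsn probe lies at chr7:31540994-31541053. All 4 probes match the + strand. The file lists 1 transcript for the Krtdap probe, 4 for each Dmkn probe and 2 for the Sbsn probe, so the signals of Dmkn and Sbsn can sum several isoforms. The Krtdap probe is shown because the largest of the 3 differences rests on it alone, and only 1 of its 3 reading frames on the strand printed is free of stop codons:
Krtdap probe: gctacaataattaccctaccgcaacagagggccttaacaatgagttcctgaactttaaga

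The 250 bases upstream of each start site, from RefSeq on GRCm38.p6 (+ strand), are shown because the 3 genes lie side by side and were all lower with TSA. Capitals mark matches to TGANTCA, the letters bound by AP-1 factors, and to TATAAA, the TATA box. The 3 genes matched 5 start windows, 1 for Krtdap, 3 for Dmkn and 1 for Sbsn, and a Dmkn window that starts 2 bases from the first is not printed. The positions are chr7:30787655-30787904 for Krtdap, chr7:30763506-30763755 for the first Dmkn window, chr7:30776155-30776404 for the last Dmkn window and chr7:30751221-30751470 for Sbsn.
Krtdap: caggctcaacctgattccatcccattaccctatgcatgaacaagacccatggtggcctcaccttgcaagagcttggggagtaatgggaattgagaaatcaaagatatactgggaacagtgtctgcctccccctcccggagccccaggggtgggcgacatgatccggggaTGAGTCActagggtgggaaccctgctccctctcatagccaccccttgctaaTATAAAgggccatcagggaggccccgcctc
Dmkn, first start: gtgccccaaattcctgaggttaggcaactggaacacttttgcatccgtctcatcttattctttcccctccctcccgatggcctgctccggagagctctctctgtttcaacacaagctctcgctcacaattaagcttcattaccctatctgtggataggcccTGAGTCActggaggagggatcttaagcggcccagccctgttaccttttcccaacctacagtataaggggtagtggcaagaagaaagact
Dmkn, last start: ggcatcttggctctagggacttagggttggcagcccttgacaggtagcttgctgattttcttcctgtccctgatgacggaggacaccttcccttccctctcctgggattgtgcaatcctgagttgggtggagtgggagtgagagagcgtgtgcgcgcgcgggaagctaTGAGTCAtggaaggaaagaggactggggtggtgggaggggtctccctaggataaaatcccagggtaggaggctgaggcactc
Sbsn: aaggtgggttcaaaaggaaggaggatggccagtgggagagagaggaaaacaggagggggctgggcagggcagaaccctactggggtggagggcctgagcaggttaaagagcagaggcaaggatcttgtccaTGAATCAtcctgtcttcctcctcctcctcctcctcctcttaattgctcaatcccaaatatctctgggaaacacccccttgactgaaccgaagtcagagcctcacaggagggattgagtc

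All 5 windows of 300 bases (these 250 and the next 50) held TGANTCA, against 7.81% of 32851 RefSeq promoter windows of that length. Since 2 of the Dmkn windows share nearly all their bases, these are 4 separate sequences. The match started at -81 from the Krtdap start site, at -89 and -82 in the printed Dmkn windows, and at -119 and -6 in Sbsn, where the second match runs past the printed bases. The TGANTCA letters read the same on both strands. TATAAA was searched on both strands and occurred only in the Krtdap window, starting at -30, against 13.6% of all windows. Of the other motifs searched on both strands, GGGCGG was in 0 of the 5 windows (35.7% of all), CCAAT in 1 (37.4%), CANNTG in 2 (72.3%) and CACCC in 3 (57.5%). The printed bases held 50.8% to 57.6% G or C, and 1 CpG in Sbsn, 5 and 6 in Dmkn and 4 in Krtdap, against medians of 52.4% and 6 over all windows cut the same way. A match is a run of letters and was not set against any binding data.

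Levels are log2 of the array's processed signal minus the log2 of that array's 75th percentile over non-control spots, so 0 is the 75th percentile of the array. The 75th percentile lay between 164.7 and 452.1 units of processed signal, and between 58.5% and 66.9% of an array's spots passed the scanner software's test for being well above background. Each level is read within a probe, since probes differ in brightness per molecule. With so few arrays, precision rests on how close replicates lie: the median gap between replicates over all genes tested was 0.23 with vehicle and 0.20 with TSA, and 5% of genes had gaps above 1.14 and 1.00.

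Krtdap was highest in Sca1+ cells with vehicle, lower with TSA and dimmest in MuSC. Its level was -1.33 and -1.44 with vehicle, -3.94 and -4.14 with TSA and -5.78 in MuSC, from processed signals of 93.5, 60.9, 21.2, 25.6 and 4.36. Both vehicle arrays were high, both TSA arrays were lower without overlap, and the MuSC array was lowest. The difference with TSA was -2.66 ± 0.16 (model SE, 2 against 2 arrays), a 6.32-fold lower level, with -2.61 within slide 1 and -2.71 within slide 2. In MuSC the probe was not well above background, so the fold against vehicle is a bound: Krtdap was at least 9.97-fold lower in MuSC than in Sca1+ cells with vehicle and at least 1.58-fold lower than in Sca1+ cells with TSA. Such bounds divide the brighter group's mean by a floor for the dim array, namely its lowest signal that still counts as well above background, or the probe's own signal where that is higher. The floor belongs to the array and not to the probe, so bounds of this kind are approximate. Those of Krtdap hold for the processed signals and not under the other background correction given below.

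Dmkn had the same order of groups and stayed well above background on every array, MuSC included. Its brighter probe read 0.56 and 0.28 with vehicle, -1.29 and -1.52 with TSA and -3.68 in MuSC. The other probe read 0.46 and 0.17, then -1.60 and -1.67, then -3.64, so the probes differed by less than the groups. The difference with TSA was -1.83 ± 0.19 for the brighter probe, a 3.55-fold lower level, with -1.85 and -1.80 within slides 1 and 2. The other probe gave -1.95 ± 0.18, or 3.86-fold lower. Dmkn was 17.1-fold lower in MuSC than in Sca1+ cells with vehicle (-4.10 ± 0.23, 1 against 2 arrays), and -4.24 within slide 1, the slide that holds the MuSC array.

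Sbsn had another order: high in Sca1+ cells with vehicle, and lower to a similar degree in Sca1+ cells with TSA and in MuSC. Its level was 1.70 and 1.58 with vehicle, 0.40 and 0.45 with TSA and 0.59 in MuSC. The vehicle arrays lay above the other 3 arrays without overlap. The difference with TSA was -1.21 ± 0.15, a 2.32-fold lower level, with -1.30 and -1.13 within slides 1 and 2, and the difference of MuSC from vehicle was -1.05 ± 0.18, or 2.07-fold lower. MuSC lay 0.17 above the mean with TSA, less than the median replicate gap over all genes, so the order of these neighbours was not resolved with 1 MuSC array.

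**Figure D1:**
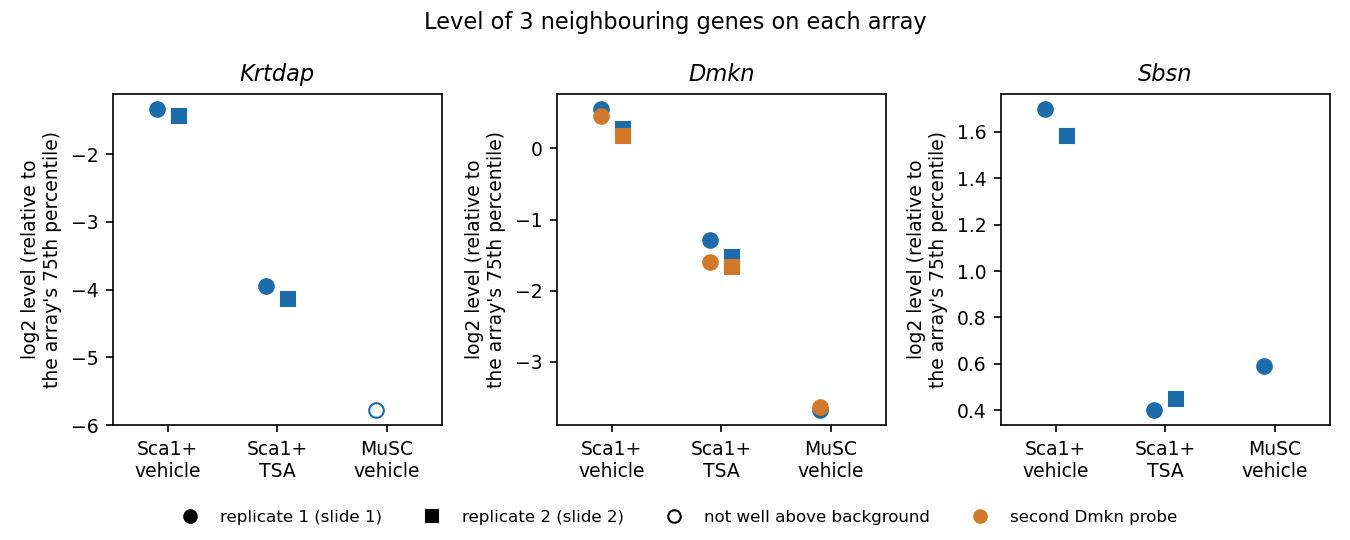
Log2 level relative to each array's 75th percentile for Krtdap, Dmkn (both probes) and Sbsn in Sca1+ cells with vehicle (2 arrays), Sca1+ cells with TSA (2 arrays) and MuSC with vehicle (1 array), with 1 point for each probe on each array, circles for slide 1, squares for slide 2 and an open point where the probe was not well above background. Krtdap and Dmkn step down from vehicle to TSA to MuSC, to -5.78 and -3.68, while Sbsn is at 0.59 in MuSC and at 0.40 and 0.45 with TSA; each panel has its own vertical range.

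Over all 26119 genes tested with limma, 2.71% were called higher with TSA and 0.268% lower (Benjamini-Hochberg adjusted p under 0.05), with a median difference of -0.13. Counted from the lowest difference, Krtdap was in place 1, Dmkn in place 22 and Sbsn in place 255, which restates why the genes were chosen. In MuSC against Sca1+ cells with vehicle, 10.5% of 26116 genes were called higher and 11.7% lower, with a median of -0.04, and the places were 130, 170 and 3380. Both comparisons share the 2 vehicle arrays, so the members' lower values in one are not independent of those in the other. In these bulk samples fewer cells of a type and less RNA per cell cannot be told apart.

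The sizes depended on the signal used. After normexp correction of the median spot signals, in place of the scanner software's processed signals, and with an offset of 50 that raises the dimmest values, the differences with TSA were -1.51 for Krtdap, -1.53 for Dmkn and -0.98 for Sbsn, while the median of all genes moved to -0.25. Those of MuSC from vehicle became -1.35, -2.33 and -0.91. The genes stayed lower in both comparisons, but Krtdap no longer had the largest difference, and its level in MuSC no longer lay below that with TSA.

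As a group, the other genes of the chromosomal neighbourhood had a median difference with TSA near that of all genes. Within 500000 bases on each side of the member probes there were 68 other genes and features, of which 55 were tested. With TSA 4 of the 55 were called higher by limma (7.27%, against 2.71% of all genes). The count called lower was 0, where 0.268% of all genes were, so it says little. At an unadjusted p under 0.05, 7 were higher and 11 lower. The median of the 55 was -0.12, against -0.13 over all genes. After normexp correction 8 were called higher (14.5%, against 4.8% of all genes) and 11 lower (20%, against 22.6%), so the share that was lower was near that of all genes. No gene near the locus was called higher when any 1 of the 4 Sca1+ arrays was left out or dim probes were not filtered. Over all genes those runs called 318 and 254 higher without vehicle array 1 or 2, 0 without either TSA array and 280 without the filter. In MuSC 5 were higher (9.09%, against 10.5% of all genes) and 7 lower (12.7%, against 11.7%), with a median of 0.04, so these shares were near those of all genes.

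With TSA the direct neighbours had smaller differences than the members. On the Sbsn side, Gapdhs, a glycolytic enzyme of sperm, was at -0.81 ± 0.26 (limma adjusted p = 0.19) and Tmem147, an endoplasmic reticulum membrane protein, at -0.32 ± 0.20 (adjusted p = 0.385). Pmis2, a sperm protein, was at 0.66 ± 0.39 (adjusted p = 0.362) and Haus5, a subunit of the augmin complex of the spindle, at 0.50 ± 0.21 (adjusted p = 0.249). On the Krtdap side, the receptors for short-chain fatty acids Ffar2 and Ffar3 were at -0.66 ± 0.44 (adjusted p = 0.41) and -0.70 ± 0.18 (adjusted p = 0.135), and Cd22, a lectin of B cells, was at -0.30 ± 0.18 (adjusted p = 0.369). Atp4a, Ffar1 and D7Ertd128e, also among the nearest, were not bright enough to be tested. The nearest probe on the Sbsn side was that of an uncharacterised transcript, C630016N16Rik, which was at 0.00 ± 0.23 with TSA. Ffar3 had the order of groups of Krtdap and Dmkn: -0.02 and 0.26 with vehicle, -0.52 and -0.64 with TSA and -1.06 in MuSC. Gapdhs and Cd22 also stepped down in that order. Haus5 had the reverse order, as did Pmis2, whose vehicle signals did not clear background. The difference of MuSC from vehicle was -1.18 ± 0.22 for Ffar3 and 1.22 ± 0.26 for Haus5.

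The 4 neighbourhood genes that rose with TSA moved against the members. Hspb6, a small heat shock protein, rose by 1.66 ± 0.15 (limma adjusted p = 0.0193). Mag, a myelin glycoprotein, rose by 1.89 ± 0.18 (adjusted p = 0.022) and Fxyd3, a regulator of the sodium pump, by 2.11 ± 0.23 (adjusted p = 0.0278). Zbtb32, a zinc finger repressor, did not clear background with vehicle or in MuSC and had a limma adjusted p of 0.0157. It was tested only through the TSA arrays, so its call could go no other way. Its bound was under 1, so no fold is given. In MuSC Hspb6, Mag and Fxyd3 were also higher, by 2.98, 3.68 and 4.24.

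**Figure D2:**
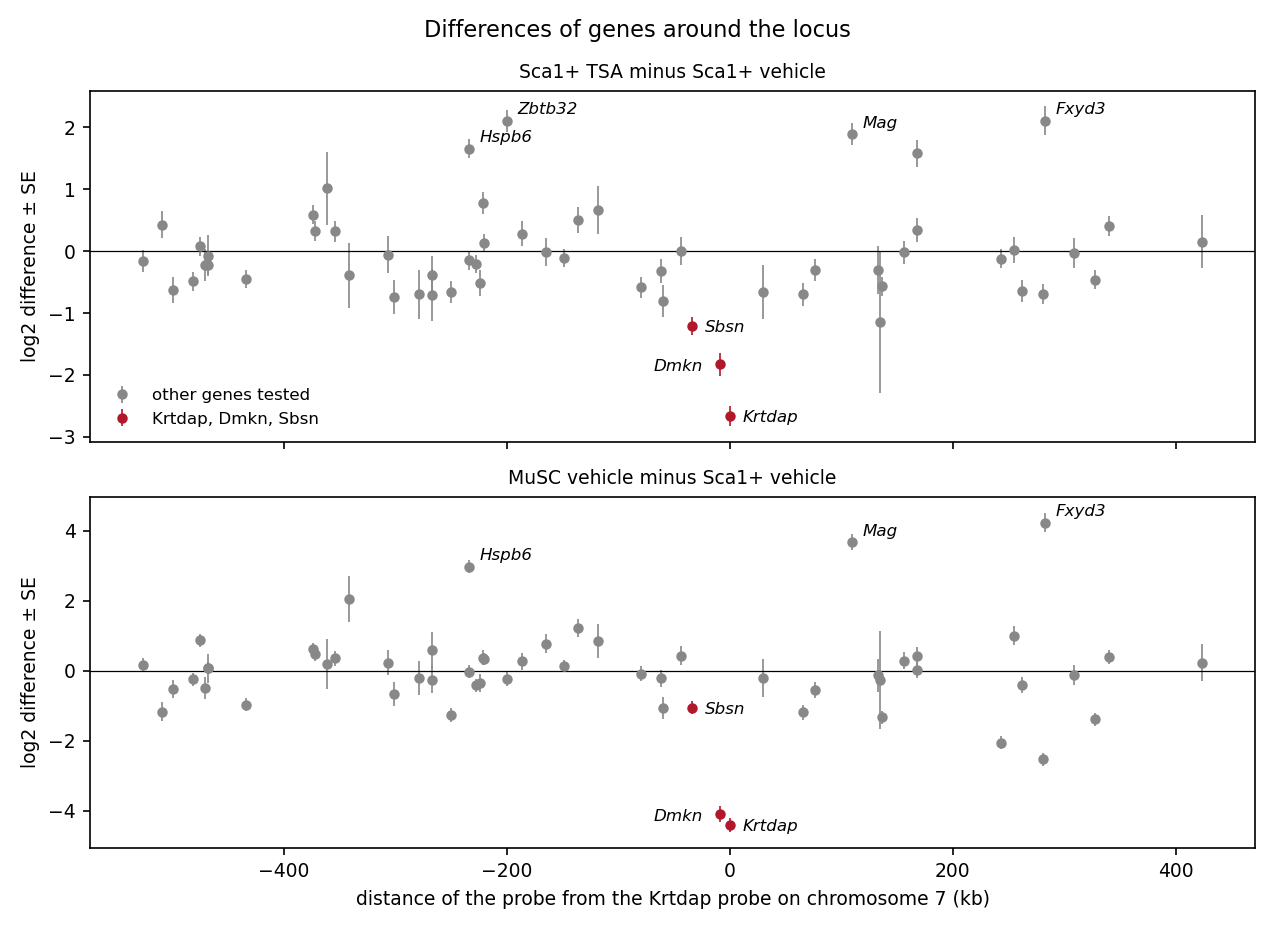
Log2 difference with the model SE (vertical axis) of each gene tested within 500000 bases of the member probes, against the distance of its probe from the Krtdap probe in kb (horizontal axis), for TSA minus vehicle in Sca1+ cells (top) and MuSC minus Sca1+ cells, both with vehicle (bottom). Red points are Krtdap, Dmkn and Sbsn, at -2.66, -1.83 and -1.21 in the top panel, grey points are the other genes, and names beside grey points mark those called higher with TSA; the Krtdap point of the bottom panel is fitted on a MuSC value not well above background.

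Several defining markers of keratinocytes were not well above background on the arrays that measured Krtdap, Dmkn and Sbsn. Of 91 genes on 4 epithelial lists, 28 were well above background on no array and 60 could be tested. Krt1, Ivl and Flg, which encode a suprabasal keratin and the cornified envelope proteins involucrin and filaggrin, were well above background on none of the 5 arrays. Epcam, an epithelial adhesion molecule, was so on 1 array, TSA replicate 1. The keratins Krt10, Krt5 and Krt14, loricrin (Lor) and the transcription factor Trp63 were well above background on all 5 arrays.

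The epithelial genes had the same median difference with TSA as all genes, -0.13. Of the defining epithelial markers tested, Krt10, Lor, Krt5, Krt14 and Trp63 lay below this median without a call, and Cdh1 was higher. Of the 60 tested, 7 were called higher by limma (11.7%, against 2.71% of all genes). Among these, Cdh1, Pkp1 and Cldn1 did not clear background with vehicle, so their calls could go no other way. The count called lower was 0, where 0.268% of all genes were, so it says little. At an unadjusted p under 0.05, 13 were higher and 7 lower. After normexp correction 6 were called higher (10%, against 4.8% of all genes) and 17 lower (28.3%, against 22.6%). Without TSA array 1 or TSA array 2, 0 were called higher, as over all genes. Without vehicle array 1 or 2, 6 and 5 were, where 318 and 254 genes were called higher over all genes.

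In the list of suprabasal and cornified envelope genes, the layers in which the members are known to be made, 0 of 17 tested rose and 0 fell with TSA, with a median of -0.04. By limma 2.71% of all genes rose and 0.268% fell, so these counts of 0 say little. After normexp correction 4 of the 17 were called lower, where 22.6% of all genes were. Krt10 was at -0.33 ± 0.15 (limma adjusted p = 0.276) and Lor at -0.47 ± 0.22 (adjusted p = 0.29). The summed level of the list, in multiples of the 75th percentile, was 13.7 and 18.7 with vehicle, 12.1 and 13.4 with TSA and 13.8 in MuSC, so both vehicle sums lay above both TSA sums, and the vehicle arrays lay further from each other than replicate 1 from the TSA arrays. In MuSC Evpl and Cdsn, which encode envoplakin and corneodesmosin, were higher by 2.05 and 1.27, Ppl, encoding periplakin, was lower (-1.98) and Asprv1, a skin protease that did not clear background there, was also called lower.

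In the list of basal keratinocyte and adhesion genes 4 of 17 rose with TSA (23.5%, against 2.71% of all genes) and 0 fell, where 0.268% of all genes did. Perp, a protein of desmosomes, rose by 5.02 ± 0.20 (limma adjusted p = 0.00429) and Itgb4, the integrin of hemidesmosomes, by 3.22 ± 0.18 (adjusted p = 0.00618). Cdh1 (E-cadherin) and Pkp1 (plakophilin 1, a desmosomal plaque protein) did not clear background with vehicle. With TSA they were higher, at least 2.66-fold and at least 3.59-fold (limma adjusted p = 0.00543 and 0.0494). Both were tested only through the TSA and MuSC arrays, so their calls against vehicle could go no other way. Krt5 was at -0.58 ± 0.19 (adjusted p = 0.19) and Krt14 at -0.72 ± 0.16 (adjusted p = 0.119). In MuSC the same 4 genes were higher than in Sca1+ cells with vehicle, Perp by 6.38 and Itgb4 by 3.69, and Krt14 was lower (-1.04).

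Among epidermal transcription factors 0 of 12 rose and 0 fell with TSA, against 2.71% and 0.268% of all genes. Trp63 was at -0.48 ± 0.20 (limma adjusted p = 0.248). In MuSC 5 of the 12 were higher (41.7%, against 10.5% of all genes), among them Gata3 by 2.10 and Hopx by 1.99, and Klf4 was lower (-1.37). Grhl1 and Ovol1 did not clear background with vehicle and were at least 3.31-fold and at least 1.49-fold higher in MuSC. Both are among the 5 and were tested only through the MuSC array, so their calls could go no other way. Of 14 genes of simple and secretory epithelium 3 rose with TSA (21.4%, against 2.71% of all genes): Krt18 by 2.37 ± 0.18 (adjusted p = 0.0128), Krt19, well above background on 1 of 2 vehicle arrays, by 3.53 ± 0.16 (adjusted p = 0.00456), and Cldn1, a tight junction protein, at least 3.95-fold (adjusted p = 0.00457). Cldn1 did not clear background with vehicle and was tested only through the TSA and MuSC arrays, so its calls against vehicle could go no other way. Krt8, tested only through the MuSC array like Grhl1 and Ovol1, was at least 3.07-fold higher in MuSC. Krt18, Krt19 and Cldn1 were higher there too. Both comparisons of these epithelial genes share the vehicle arrays, as for the members, so the TSA and MuSC values stand side by side only.

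Markers of other cells differed between the same groups. Pdgfra was at 4.83 and 4.87 in Sca1+ cells with vehicle and at -1.65 in MuSC, and Pax7 was at 3.48 in MuSC and at -3.77 and -4.51 in Sca1+ cells with vehicle. Both gates are labelled α7-integrin+, but Itga7, which encodes that integrin, was at 1.35 and 1.09 in Sca1+ cells with vehicle, 4.53 and 4.59 with TSA and 7.02 in MuSC. The smooth muscle genes Acta2 and Myh11 were at 9.33 and 5.76 in MuSC and the Schwann cell gene Mal at 4.38, each above its level in Sca1+ cells. Of 21 fibroadipogenic progenitor genes tested, 3 fell with TSA (14.3%, against 0.268% of all genes). All 21 lay below 0, against 61.4% of all genes, between -1.57 and -0.56 with a median of -0.97. Scara5, a ferritin receptor, fell by 1.57 (limma adjusted p = 0.0193), Cd55, a complement regulator, by 1.40 (adjusted p = 0.0369) and Pi16, a peptidase inhibitor, by 1.37 (adjusted p = 0.0466); Pdgfra, the receptor that marks these cells, was at -0.80 ± 0.18 (adjusted p = 0.121). After normexp correction 18 were called lower (85.7%, against 22.6% of all genes), and 0 were when any 1 Sca1+ array was left out or dim probes were not filtered. Over all genes those runs called only 0 to 2 lower without 1 array and 3 without the filter, so a list count of 0 there says little. In MuSC all 21 were called lower, against 11.7% of all genes, between -6.91 and -3.05. By their fitted differences Krtdap and Dmkn lay below the whole range of this list with TSA and within it in MuSC, while Sbsn lay within it with TSA and above it in MuSC. Krtdap and Dmkn were chosen for being lower with TSA, so their place below the list there restates that choice.

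The summed level of the fibroadipogenic list was 5290 and 7530 with vehicle, 2980 and 3290 with TSA and 469 in MuSC, and all 21 genes were well above background on every array. Over the same arrays the 16 satellite and myogenic genes summed to 14.7 and 13.9, then 52.0 and 54.8, then 368, with 10 of 16 called higher with TSA (62.5%, against 2.71% of all genes), among them Pax7, well above background on 1 of 2 vehicle arrays, by 3.07 (adjusted p = 0.0213) and Myod1 by 3.09 (adjusted p = 0.0395). The 12 smooth muscle and pericyte genes summed to 78.9 and 85.4, then 643 and 595, then 1680, with 9 higher with TSA (75%). Mast cell genes summed to 1.90 and 2.25, then 33.2 and 30.5, then 1.35, with 6 of 7 tested higher (85.7%). Of these 6, Cpa3, Cma1 and Fcer1a were well above background on all arrays of a group only with TSA. They were tested through that group, so their calls could go no other way. With TSA, Schwann cell genes were higher in 5 of 10 (50%), endothelial genes in 1 of 10 (10%) and macrophage genes in 0 of 9. After normexp correction 7 Schwann cell, 7 endothelial and 2 macrophage genes were called higher, where 4.8% of all genes were. In MuSC the satellite, smooth muscle and Schwann lists had 16 of 16, 11 of 12 and 8 of 10 genes higher, against 10.5% of all genes, while 7 of 10 endothelial genes were lower (70%, against 11.7%; median -1.39). Of the mast cell genes 1 of 7, of the macrophage genes 1 of 9 and of the smooth muscle genes 1 of 12 were lower in MuSC. The part of these cell markers in the lower signals of Krtdap, Dmkn and Sbsn was not tested.

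**Figure D3:**
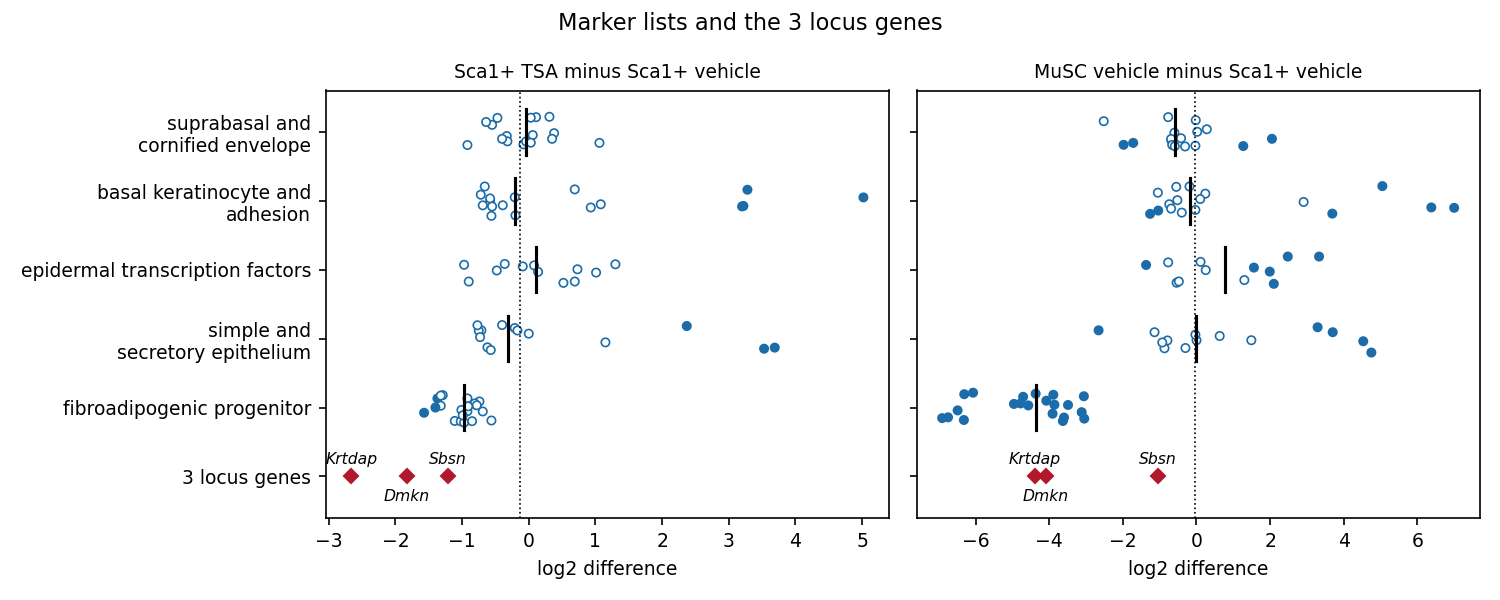
Log2 difference (horizontal axis) of each gene tested on the 4 epithelial lists and the fibroadipogenic list, beside the 3 locus genes (red diamonds), for TSA minus vehicle in Sca1+ cells (left) and MuSC minus Sca1+ cells with vehicle (right). Filled circles passed the limma threshold, black bars are list medians and the dotted line is the median of all genes, at -0.13 on the left. The locus genes lie below every tested gene of the epithelial lists on the left, the comparison on which they were chosen. On the right Krtdap and Dmkn lie among the fibroadipogenic genes.

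The genes with the pattern most like each member were found by the Euclidean distance between mean-centred log2 levels over the 5 arrays, among 26108 genes with values on all 5. The distance is a description of 5 arrays that hold the same vehicle arrays for every gene. Krtdap and Dmkn were both chosen for lower levels on the TSA arrays, which the distance uses again, so their likeness is no separate result. In the order of distance from Krtdap, Dmkn came first at 0.85, followed by Col6a6 (a collagen VI chain, 0.96), Smpd3 (a sphingomyelinase, 1.05), Cxcl13 (a chemokine, 1.07) and Mmp27 (a matrix metalloproteinase, 1.15). Krtdap and Mmp27 were not well above background in MuSC, so that point of their patterns is uncertain. The nearest to Dmkn were Col6a6 at 0.30, Mmp27 at 0.35, Cxcl13 at 0.44, Cd55 at 0.49 and Scara5 at 0.52, and Krtdap was in place 29. Cd55 and Scara5 are also on the fibroadipogenic list above, and Col6a6 was 0.35 and 0.00 with vehicle, -1.32 and -1.92 with TSA and -4.06 in MuSC.

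Sbsn had other nearest genes: Krt72, a keratin of the hair follicle, at 0.21, Cadps2, a factor of vesicle release, at 0.26, Tmem179 at 0.30, Efhd1, a calcium-binding protein, at 0.31 and Lpar4, a lysophosphatidic acid receptor, at 0.32. Krt72 was not well above background in MuSC. The distance of Sbsn was 2.76 from Krtdap and 2.54 from Dmkn, and it was in place 1770 and 2799 among the genes ordered by distance from them. Sbsn was lower with TSA like its neighbours, but that is the comparison on which the members were chosen. It parted from them in MuSC, where it was 2.07-fold below Sca1+ cells with vehicle and Dmkn was 17.1-fold below.

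**Figure D4:**
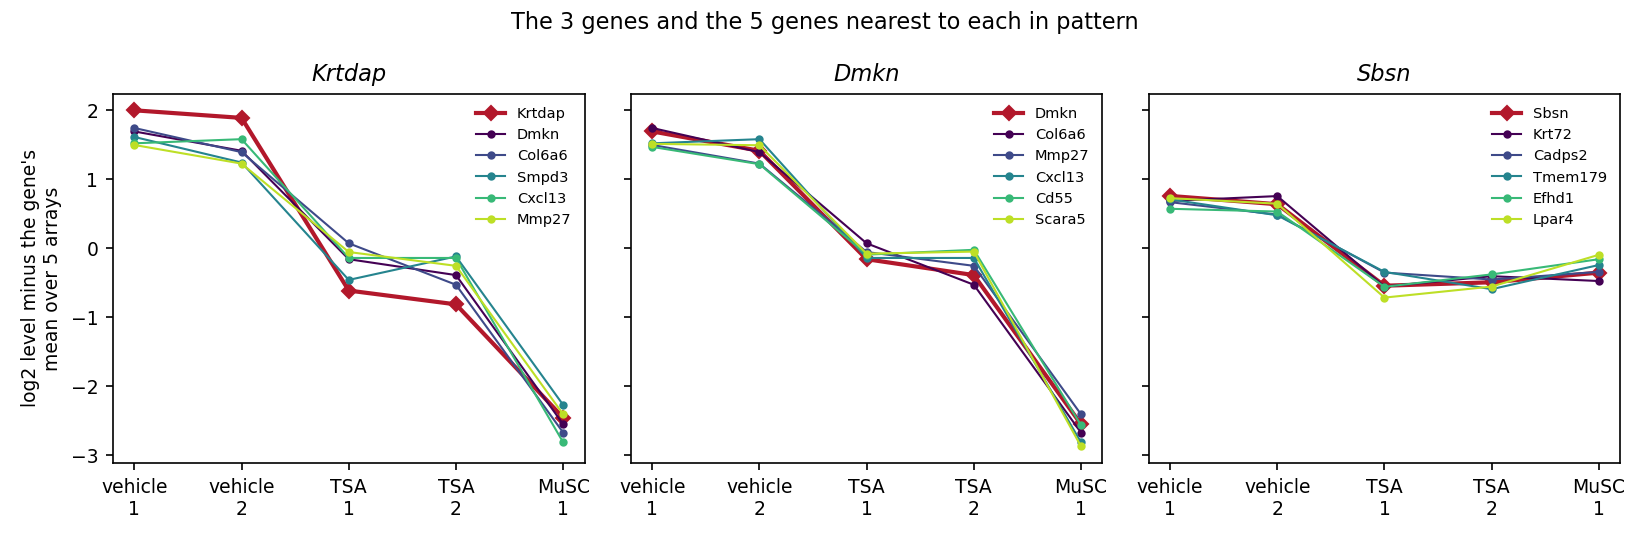
Log2 level minus the gene's own mean over the 5 arrays (vertical axis) on each array (horizontal axis) for Krtdap, Dmkn and Sbsn (thick red lines) and the 5 genes nearest to each by Euclidean distance (thin lines). Dmkn and its neighbours step down from vehicle to TSA to MuSC with distances of 0.30 to 0.52, while Sbsn and its neighbours step down once and do not step down again in MuSC. Before centring, Lpar4 was at 0.39 and 0.55 with TSA and 1.01 in MuSC, and Efhd1 at 0.89 and 1.07, then 1.29.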

How the data were processed

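RNA of sorted mdx muscle cells was measured on 5 Agilent arrays of 1 colour. Per the file headers, Agilent Feature Extraction 10.7.3.1 read the spots and gave processed intensities with background subtracted. The authors' deposited value table is in log2, keeps the order of the processed signals within each array (Spearman 1.0000) and has a shared median of 4.67, and its tool is not given in the sources used here. Control spots and outlier spots (0.196% to 0.334% per array) were left out. Log2 processed signals minus each array's 75th percentile were used. Of 55681 probes, 26413 were named through accessions and 574 through another probe. A gene was tested if some group had it well above background on all its arrays, by its brightest probe. A gene dim in the other groups therefore entered through the group where it was high, which fixes the direction of a call between them.

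The tests are two-sided moderated tests of limma 3.58.1 (R 4.3.3) over 5 arrays in 3 groups, with 2 residual degrees of freedom, a prior of 2.3 and a Benjamini-Hochberg threshold of 0.05; the MuSC array is assumed to vary like the others. The method was tested on simulated data. The members and gene lists were chosen with earlier results of these data known. Beside the members, genes were named by rule: defining markers, the 4 largest called differences of each epithelial list, the 5 nearest genes on each side and those near the locus that rose with TSA, and the 5 nearest patterns. Pi16, Klf4, Itga7, Acta2, Myh11, Mal, Cpa3, Cma1, Fcer1a and C630016N16Rik were named after their values were seen. Alternatives were normexp (offset 50, on median signals because the files of slide 2 lack mean signals), quantile normalization, the deposited values, no filter, the mean over probes, a replicate block, only the groups compared and leaving out each array. Same-numbered vehicle and TSA arrays had deviations correlated at 0.346, which with 2 pairs does not settle a pairing.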

Additional observations from a re-analysis of the deposited data

How the results depend on the processing

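Krtdap, Dmkn and Sbsn stayed lower in both comparisons under every alternative run. Leaving out each array moved the TSA differences between -2.76 and -2.56 for Krtdap, -1.97 and -1.68 for Dmkn and -1.28 and -1.15 for Sbsn, and those of MuSC between -4.45 and -4.35, -4.24 and -3.95, and -1.11 and -0.99. With a replicate block the TSA differences were the same (-2.66, -1.83 and -1.21), those of MuSC were -4.47, -4.23 and -1.07, and 167 genes were called lower with TSA, 5 of them fibroadipogenic. With normexp the members moved to -1.51, -1.53 and -0.98 with TSA and -1.35, -2.33 and -0.91 in MuSC, and the calls with TSA were 1253 higher and 5902 lower over all genes, 17 lower on the epithelial lists, 8 higher and 11 lower near the locus and 18 lower on the fibroadipogenic list. Without the filter on dim probes 280 genes were higher and 3 lower with TSA, 1576 and 1814 in MuSC, 0 near the locus were higher with TSA, 3 higher and 4 lower there in MuSC, 2 epithelial genes were lower in MuSC and 0 fibroadipogenic genes fell with TSA. With only the groups compared 1588 genes were higher and 1828 lower in MuSC, 3 of them lower on the epithelial lists and 3 near the locus. Leaving out each array gave 0 to 318 genes higher and 0 to 2 lower with TSA (0 and 0 without either TSA array) and 1588 to 2008 higher and 1828 to 2276 lower in MuSC. It gave 0 to 6 epithelial genes higher, 0 locus genes higher and 0 fibroadipogenic genes lower with TSA, and in MuSC 3 to 4 epithelial genes lower, 3 to 5 locus genes higher and 3 to 6 lower. Where these counts differ from the main ones the cause was not tested, and fewer arrays leave fewer degrees of freedom. Signal over background limits Krtdap in MuSC to a bound, and 28 of 91 epithelial genes were not well above background on any array.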
